A study of Canis lupus familiaris with 45 samples.

Results

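The comparison set subcutaneous fat of 5 dogs that ate freely for 24 weeks against fat of 4 dogs that were fed to hold their weight, at week 24. Its members are all arrays of the 2 groups at that week, 5 ad libitum arrays (dogs 2, 5, 6, 7 and 8) and 4 control arrays (dogs 1, 3, 4 and 9), which is 9 of the 45 arrays of the series. Every animal was an intact female beagle, 4 years old, and both groups ate the same food, Purina Pro Plan Performance Formula. Dogs were randomized to ad libitum or weight-maintenance feeding. Biopsies were taken after an overnight fast, so fat was not sampled in the fed state. A single array was hybridised per dog and week with total RNA from the whole biopsy, and all 9 week-24 arrays form laboratory batch 6 of the labels. The deposited values are GCRMA expression values read here as log2, so that a difference of 1 is a doubling, and values under about 4 lie at background.

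White fat stores fatty acids as triglyceride. Its adipocytes make fatty acids from glucose, desaturate and elongate them, attach them to glycerol in the endoplasmic reticulum and keep the product in a lipid droplet, from which lipases release it again during fasting. Insulin raises the first set of steps and restrains the last, and the hormone leptin reports the size of the store to the brain.

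All 9 arrays matched the dog named in their label when 100 probe sets that separate the dogs were compared with the dogs' other arrays (lowest correlation with the own dog 0.913, highest with another dog 0.879). The adipocyte markers were bright on every array: ADIPOQ, which encodes the adipocyte hormone adiponectin, lay between 14.72 and 15.96 in ad libitum fat and between 14.75 and 15.63 in control fat. The mean of 31 skeletal muscle genes was 3.89 to 5.18 on the 5 ad libitum arrays, near background, and 3.94 to 10.05 on the control arrays. Control dogs 3 (10.05) and 4 (9.18) thus carried muscle transcripts and control dogs 1 and 9 did not. The 3' minus 5' signal of actin, a sign of RNA integrity, averaged 3.51 ± 0.91 in ad libitum fat and 4.79 ± 1.20 in control fat (SD, n = 5 and 4, two-sided exact permutation test p = 0.103, adjusted over 8 quality measures 0.254). Of the other 2 actin pairs, 1 differed by -0.40 and 1, in the other direction, by 0.24. The latter pair was low on arrays rich in muscle transcripts, so it also followed muscle content. It was -0.90 in control dog 3, and -2.15 in that dog at week 0, when its muscle mean was 14.24. The same signal of GAPDH was 0.22 to 0.31 in ad libitum fat and 0.31 to 0.39 in control fat without overlap (difference -0.0741, two-sided exact permutation test p = 0.0159, adjusted 0.127).

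At week 24, 1238 of 22690 tested probe sets (5.46%) differed between the groups at an adjusted p under 0.05, from limma's moderated test with Benjamini-Hochberg adjustment. Of these, 854 were higher (3.76%) and 384 lower (1.69%) in ad libitum fat. Centring each array on its median gave 590 higher and 425 lower. With the brightest probe set of each of 9113 named genes, 349 genes were higher (3.83%) and 135 lower (1.48%), and the median difference over all of them was -0.00. The groups did not overlap for 5.76% of the named genes in the higher direction and 4.33% in the lower one, and for 5.41% and 4.34% of all tested probe sets.

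The number of calls moved with single arrays and with some of the technical settings. It was 58 without control dogs 3 and 4, of which 55 were among the 1238, and that comparison has 2 control arrays left. With all arrays kept and the muscle mean as a covariate it was 1253, of which 995 were among the 1238. It was 29 when the first actin measure entered the fit as a covariate, and 370 and 1588 with these other 2 pairs, both chosen after seeing the data. Leaving out one dog gave 238 calls without ad libitum dog 2, 525 without dog 6, 505 without dog 7, 686 without control dog 3, 406 without control dog 4 and 3097 without ad libitum dog 5.

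Of the 124 called probe sets described here, 10 kept their call with the 9 week-24 arrays alone. With the muscle covariate 106 kept it, and 12, 53 and 124 with the 3 actin pairs in the same order. The last pair also follows muscle content, so its count is not a separate check of RNA integrity. All 124 kept their sign and 15 kept their call without control dogs 3 and 4. The 15 were 4 probe sets of DGAT2, 2 each of NPR3 and TREM2, and 1 each of SCD, FITM2, NNAT, ANKRD37, CCDC65, ARID1A and KIF5A. Each of the other 109 was no longer called without those 2 arrays (limma's adjusted p 0.0538 to 0.83). For 17 probe sets the difference itself then moved by more than 1.5 times, and its value is given beside each. The plot of all probe sets shows the size and adjusted p of each difference.

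**Figure D1:**
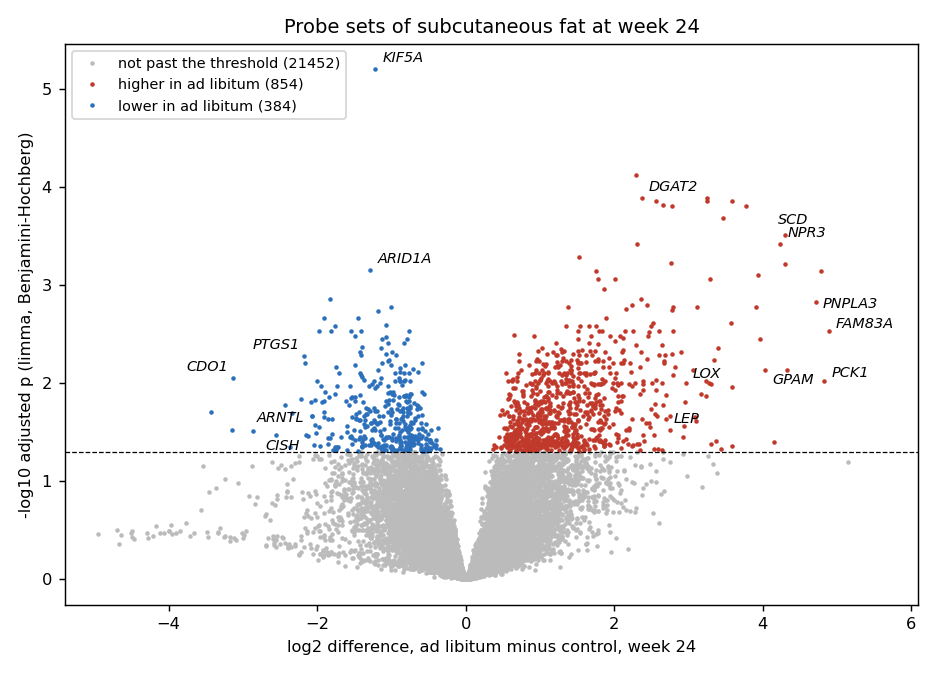
Each point is one of 22690 tested probe sets, with the log2 difference (ad libitum minus control fat, week 24) on the horizontal axis and -log10 of the adjusted p on the vertical axis, and the dashed line marks an adjusted p of 0.05. The 854 red points are higher and the 384 blue points lower in ad libitum fat, and the differences of largest size lie on the higher side.

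Before the feeding changed, at week 0, 0 of 22690 probe sets (0.0%) differed between the same dogs by limma's adjusted p, and 312 (1.38%) did at an unadjusted p under 0.05. The difference between the groups in their change since week 0 passed the threshold for 5 probe sets (0.022%), and 2316 (10.2%) had an unadjusted p under 0.05. Of the 5, 2 carry a gene symbol, KIF5A, a motor protein of axonal transport, and ARID1A, a subunit of the SWI/SNF chromatin remodelling complex. That comparison also holds the change of batch, which both groups share, and 5 of the 9 week-0 arrays carried muscle transcripts. For the other genes named below, the difference in change since week 0 did not pass the threshold.

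Values by dog are written in one order throughout, ad libitum dogs 2, 5, 6, 7 and 8 and then control dogs 1, 3, 4 and 9. In biopsies of whole tissue, a lower value can come from fewer cells of a type or from less RNA per cell, and these cannot be told apart. Counts of called genes in every list below stand against 3.83% higher and 1.48% lower of all named genes. In a short list a single call already exceeds these shares.

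Of 11 tested genes for fatty acid desaturation and elongation, 4 were higher and 0 lower in ad libitum fat, against 3.83% and 1.48% of all named genes. Of the 11 differences 9 were positive, with a median of 0.50, or 0.20 with the actin covariate, and none was called without control dogs 3 and 4 at the brightest probe set of each gene. SCD, the desaturase that turns stearic into oleic acid, read 15.57, 13.32, 15.10, 13.86 and 14.72 in ad libitum dogs, against 10.33, 9.28, 9.94 and 11.29 in control dogs, at 1 of its 3 probe sets. The lowest ad libitum dog lay 2 log2 units above the highest control dog. The difference was 4.30 (SE 0.65, 19.7-fold, adjusted p = 3.09e-04), and it kept its call under 27 of 27 other ways of processing. A second SCD probe set gave the same 4.30, while the brightest, close to the top of the scale, read 16.26 to 16.45 in ad libitum dogs and 14.99 to 16.05 in control dogs and differed by 0.72 (0.45 without control dogs 3 and 4). At week 0 the first probe set had averaged 12.79 ± 1.00 in the ad libitum dogs and 12.68 ± 1.73 in the control dogs (SD, n = 5 and 4). At week 24 the means were 14.51 ± 0.92 in ad libitum dogs and 10.21 ± 0.84 in control dogs, so the ad libitum mean was higher and the control mean lower than at week 0. The difference in change was 3.96 (limma's adjusted p = 0.17).

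ELOVL6, the elongase that lengthens palmitic to stearic acid, read 9.68, 6.28, 9.53, 6.85 and 6.44 in ad libitum dogs, against 3.37, 3.01, 4.69 and 3.35 in control dogs. It was above background in all 5 ad libitum dogs and near background in 3 of 4 control dogs, with no overlap (difference 4.16, SE 1.22, adjusted p = 0.0399). No fold is given because the control mean is at background. Its difference was not called without control dogs 3 and 4 (limma's adjusted p = 0.242). The other called members, HACD2 (1.94) and TECR (1.49, or 0.90 without control dogs 3 and 4), encode enzymes of the later steps of the elongation cycle.

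FASN, the enzyme that builds palmitic acid, read 13.46, 10.06, 12.53, 12.04 and 11.53 in ad libitum dogs, against 12.70, 9.32, 10.49 and 12.54 in control dogs. The groups overlapped widely, control dogs 1 and 9 stood among the highest, and the difference of 0.66 (SE 0.56, adjusted p = 0.512) was not called at any of its 4 probe sets. Without control dogs 3 and 4 it turned to -0.70. The list of fatty acid synthesis and its regulators had 18 tested genes, of which 4 were higher and 0 lower, with a median of 0.87 (0.51 without control dogs 3 and 4). SREBF1, a transcription factor that drives lipid synthesis genes, was higher by 1.67 (adjusted p = 0.047) at 1 of 2 probe sets, with ad libitum dog 5 at 3.91 inside the control range of 3.73 to 4.47. SLC25A1, the mitochondrial citrate exporter that supplies the carbon, was higher by 1.06, and ACSL1, which activates fatty acids to their CoA esters, by 1.64.

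PNPLA3, a lipid droplet protein that is induced by carbohydrate feeding, belonged to this list and to that of the droplet proteins. It read 11.71, 8.11, 10.95, 10.89 and 10.24 in ad libitum dogs, against 5.61, 3.50, 5.53 and 8.02 in control dogs. The groups did not overlap, although control dog 9 came close to ad libitum dog 5 (difference 4.72, SE 0.82, 26.3-fold, adjusted p = 0.0015). Without control dogs 3 and 4 the difference was 3.58 and was no longer called (adjusted p = 0.12).

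Of 11 tested genes of triglyceride assembly 3 were higher and 0 lower, with a median of 1.21, or 0.74 without control dogs 3 and 4. DGAT2, which adds the last fatty acid, read 14.63, 13.18, 13.96, 14.20 and 13.99 in ad libitum dogs, against 11.54, 10.25, 12.31 and 12.38 in control dogs at its brightest probe set. Every ad libitum dog lay above every control dog. The difference was 2.37 (SE 0.33, 5.17-fold, adjusted p = 1.3e-04), and 3.26, 3.59 and 3.77 at the other 3 probe sets. All 4 kept their call without control dogs 3 and 4 and with the actin covariate. At the probe set that differed by 3.77, the ad libitum mean was 10.81 at week 0 and 11.57 at week 24. The control mean there was 10.28 at week 0 and 7.79 at week 24.

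GPAM, the mitochondrial enzyme of the first acylation step, read 9.48, 5.14, 8.53, 8.64 and 8.42 in ad libitum dogs, against 3.49, 4.29, 3.61 and 4.65 in control dogs. Ad libitum dogs 2, 6, 7 and 8 lay close together, and dog 5 lay only just above control dog 9 (difference 4.03, SE 0.88, adjusted p = 0.00732, 1 of 2 probe sets called). The control mean was at background, so no fold is given, and the difference was not called without control dogs 3 and 4 (limma's adjusted p = 0.136). AGPAT2, which adds the second fatty acid, was higher by 1.71 (SE 0.40, adjusted p = 0.0102), or by 1.09 without control dogs 3 and 4.

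Of 9 tested genes that supply glycerol, 2 were higher and 0 lower, and all 9 differences were positive with a median of 1.12. PCK1, which makes the glycerol backbone from pyruvate carbon in fasted fat, read 13.57, 10.87, 13.27, 14.13 and 14.19 in ad libitum dogs, against 7.94, 7.45, 8.98 and 9.13 in control dogs (the probe set with the largest difference, 4.83, SE 1.10, 28.4-fold, adjusted p = 0.00952, and 0.168 without control dogs 3 and 4). Ad libitum dog 5 stood apart from its group and still exceeded all control dogs. The 3 PCK1 probe sets were all called, with differences of 2.39 to 4.83. AQP7, the channel through which glycerol leaves adipocytes, read 11.11, 7.75, 10.54, 10.97 and 11.24 in ad libitum dogs, against 8.61, 7.13, 8.24 and 8.92 in control dogs (difference 2.10, adjusted p = 0.0201), with dog 5 inside the control range. The median of the list was 0.34 without control dogs 3 and 4 and 0.51 with the actin covariate.

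FITM2, an endoplasmic reticulum protein that helps droplets form, read 8.91, 3.41, 7.21, 7.42 and 7.71 in ad libitum dogs, against 2.68, 3.41, 2.57 and 3.42 in control dogs. It was at background in every control dog and in ad libitum dog 5, and well above it in the other 4 ad libitum dogs (difference 3.91, SE 0.69, adjusted p = 0.00166, and 3.89 without control dogs 3 and 4). The ad libitum mean was 6.70 at week 0 and 6.93 at week 24. The control mean was 6.47 at week 0 and 3.02 at week 24, and the batch also changed between those weeks. PLIN2, a droplet coat protein, was higher by 0.83 with no overlap (adjusted p = 0.0238, 3 of 4 probe sets). Among 14 droplet proteins 3 were higher and 0 lower, and the list median of 0.48 became -0.00 without control dogs 3 and 4 and 0.30 with the actin covariate. The plot of 12 fat genes by dog shows these levels side by side.

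**Figure D2:**
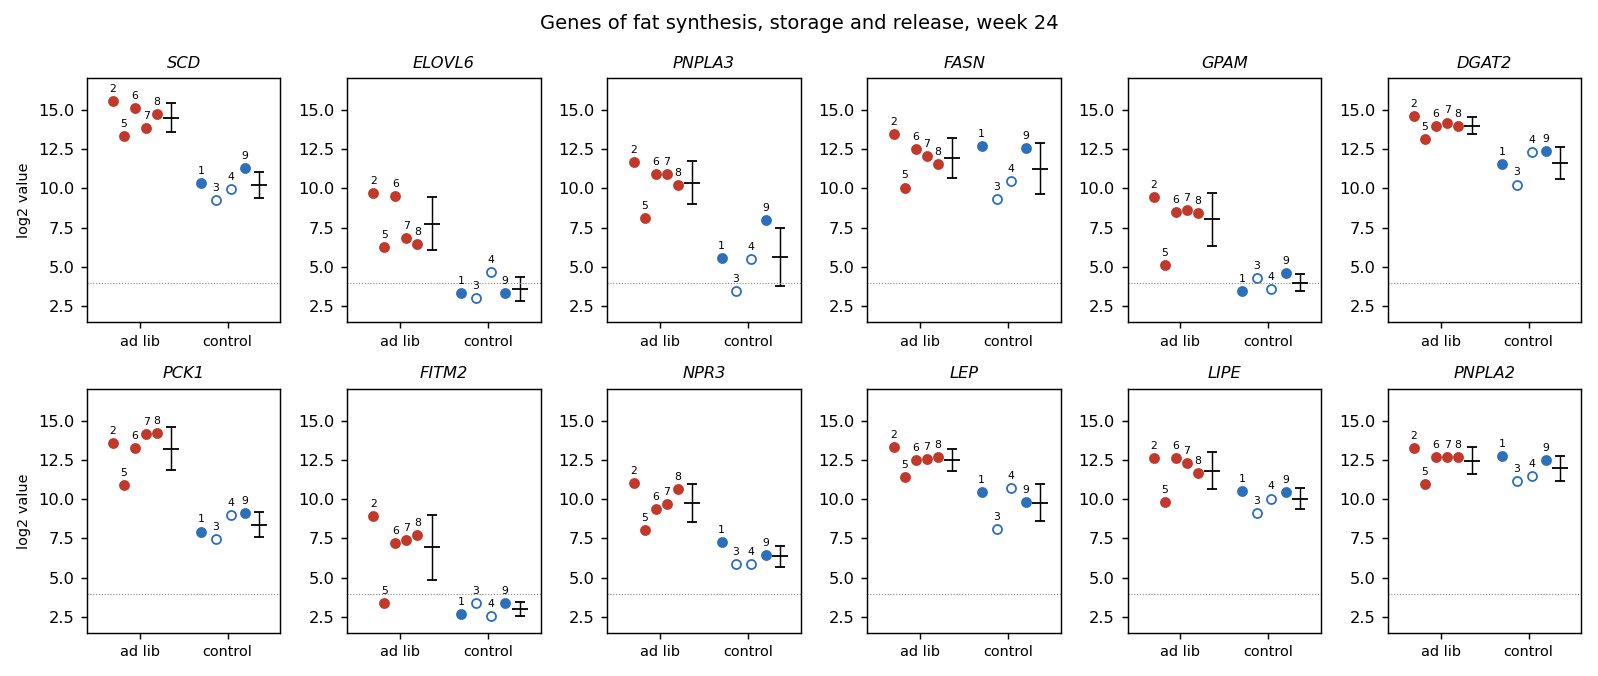
Each panel shows one gene of fat metabolism, with log2 expression on the vertical axis, ad libitum dogs on the left in red and control dogs on the right in blue, each point numbered by dog. Open points are control dogs 3 and 4, whose arrays carried muscle transcripts, bars are the mean ± SD (n = 5 and 4) and the dotted line is the background level of 4. SCD and DGAT2 separate the groups fully, whereas FASN and PNPLA2 overlap.

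Of 20 tested genes of lipolysis and its hormonal control, 5 were higher and 0 lower, and 13 of the differences were positive. None was called without control dogs 3 and 4 at its brightest probe set. NPR3, the receptor that clears natriuretic peptides and so limits their lipolytic signal, read 11.05, 8.03, 9.35, 9.70 and 10.65 in ad libitum dogs, against 7.25, 5.87, 5.88 and 6.46 in control dogs at its brightest probe set. All ad libitum dogs were above all control dogs. The difference was 3.39 (SE 0.68, 10.5-fold, adjusted p = 0.00443), the other 3 probe sets gave 3.93 to 4.79, and 2 of the 4 kept their call without control dogs 3 and 4. At week 0 the groups had the same mean at this probe set, 6.12 ± 0.91 in the ad libitum dogs and 6.12 ± 0.94 in the control dogs. At week 24 the means were 9.76 ± 1.19 in ad libitum dogs and 6.36 ± 0.65 in control dogs, so the control mean was close to that of week 0.

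LIPE, the hormone-sensitive lipase, read 12.64, 9.82, 12.64, 12.31 and 11.66 in ad libitum dogs, against 10.55, 9.10, 10.04 and 10.48 in control dogs. Dog 5 fell inside the control range and the other 4 ad libitum dogs above it (difference 1.77, SE 0.51, 3.42-fold, adjusted p = 0.0356). MGLL, which splits off the last fatty acid, was higher by 1.04 (0.68 without control dogs 3 and 4). ABHD5, the activator of the first lipase, was higher by 1.86 at 1 of 2 probe sets, and ADORA1, an adenosine receptor that restrains lipolysis, by 2.06 (0.74 without control dogs 3 and 4). PNPLA2, that first lipase, read 13.26, 10.98, 12.66, 12.68 and 12.67 in ad libitum dogs, against 12.73, 11.14, 11.46 and 12.48 in control dogs, and was not called at any of 4 probe sets (difference 0.50, adjusted p = 0.494). The list held both promoters and brakes of lipolysis, and its median of 0.64 became -0.10 without control dogs 3 and 4 and 0.32 with the actin covariate.

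LEP, which encodes leptin, read 13.35, 11.41, 12.47, 12.55 and 12.66 in ad libitum dogs, against 10.46, 8.10, 10.74 and 9.84 in control dogs. The groups did not overlap, and the difference was 2.70 (SE 0.72, 6.51-fold, adjusted p = 0.0233). The means at week 0 had been 8.61 ± 1.12 in the ad libitum dogs and 8.90 ± 1.62 in the control dogs. LEP was the only called gene of 16 adipokines and secreted proteins, whose median was -0.03. ADIPOQ differed by 0.35 (SE 0.20, adjusted p = 0.301) and was not called.

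The transcription factors of adipocytes did not move as one. PPARG, the master regulator of fat cells, read 12.86, 10.97, 12.99, 12.97 and 12.76 in ad libitum dogs, against 12.17, 10.82, 11.45 and 12.47 in control dogs (difference 0.79, SE 0.40, adjusted p = 0.236). Of 16 such factors 1 was higher, SREBF1 (above), and 1 lower, KLF5, a factor that promotes adipocyte differentiation in mice. KLF5 read 6.41, 6.77, 6.96, 6.23 and 6.11 in ad libitum dogs, against 7.35, 8.96, 10.75 and 7.23 in control dogs. The groups did not overlap, but the 2 control dogs with muscle transcripts were highest, and the difference of -2.08 (SE 0.51, adjusted p = 0.0155) was -1.35 without control dog 4 and -0.80 without dogs 3 and 4.

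Uptake of fatty acids showed little. LPL, the lipase that frees fatty acids from circulating lipoproteins, read 13.13 to 14.97 in ad libitum dogs and 13.43 to 14.66 in control dogs, with a difference of 0.35 (adjusted p = 0.594). LMF1, a chaperone needed to fold that lipase, was higher by 1.29 with no overlap (adjusted p = 0.00952). It and ACSL1 were the 2 called of 21 tested genes of uptake and activation, and the list median was 0.15 (-0.04 without control dogs 3 and 4). In insulin signalling and glucose transport 2 of 20 were higher and 0 lower, GRB14, an adaptor that inhibits the insulin receptor (2.12, adjusted p = 0.0392), and CBL, an adaptor and ubiquitin ligase (1.88, adjusted p = 0.0257, and 1.08 without control dogs 3 and 4). The list median was 0.15, or 0.05 without those dogs.

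In the pentose phosphate pathway, a source of the NADPH that fatty acid synthesis uses, 3 of 7 tested genes were higher and 0 lower, PGD (1.02), TKT (1.28) and RPE (0.90), with a median of 0.67 (0.41 with the actin covariate). PGD, the second NADPH-producing enzyme of the pathway, read 14.63, 13.36, 13.86, 13.70 and 13.80 in ad libitum dogs, against 13.10, 12.54, 12.55 and 13.20 in control dogs. No ad libitum dog fell into the control range (SE 0.22, adjusted p = 0.00728).

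Of 22 genes of glycolysis and pyruvate handling, 5 were higher and 0 lower, with a median of 0.42. Both subunits of the mitochondrial pyruvate carrier were among them, MPC2 by 1.18 (SE 0.24, adjusted p = 0.00481) and MPC1 by 1.13 (SE 0.28, adjusted p = 0.0161). MPC2 read 14.17, 12.88, 13.94, 14.15 and 13.92 in ad libitum dogs, against 12.89, 12.37, 12.45 and 12.82 in control dogs, so that ad libitum dog 5 and control dog 1 met and the other dogs were apart. PFKFB3, which makes the activator of phosphofructokinase, was higher by 1.45, PDK3, a kinase that inhibits pyruvate dehydrogenase, by 0.86, and LDHA, lactate dehydrogenase, by 0.64 (0.31 without control dogs 3 and 4). Without control dogs 3 and 4 the list median was 0.49.

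The differences of mitochondrial genes were small, and few of them passed the test. All 34 tested subunits and assembly genes of respiratory complex I had positive differences, as did all 22 of complexes III to V and all 24 of the citric acid cycle and pyruvate dehydrogenase, with medians of 0.53, 0.49 and 0.55. Among all named genes 4556 of 9113 differences were positive. In each of these 3 lists 3 genes were called higher and 0 lower (8.82%, 13.6% and 12.5% higher, against 3.83% of all named genes). The medians were 0.49, 0.47 and 0.44 without control dogs 3 and 4, where none of these genes was called. With the actin covariate the medians were 0.41, 0.35 and 0.39. The complex I mean was 11.51 to 12.69 in ad libitum dogs and 11.48 to 11.66 in control dogs, so the groups overlapped through ad libitum dog 5. At week 0 the medians of the 3 lists were -0.16, -0.12 and -0.13. For 7 of the 34 complex I genes the groups did not overlap, against 5.76% of all named genes.

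NDUFA7, a complex I subunit, read 12.55, 11.28, 11.81, 11.96 and 12.04 in ad libitum dogs, against 11.14, 10.78, 10.94 and 11.05 in control dogs (difference 0.95, SE 0.22, adjusted p = 0.0112). The gap between the groups was narrow and ad libitum dog 5 stood nearest to it. NDUFA4 (0.68) and NDUFB6 (0.51) were called among the rest, together with ATP5J2 (0.72), a subunit of ATP synthase, COX8A (0.78), of cytochrome oxidase, and COX7A2L (0.99), which helps assemble respiratory supercomplexes. In the citric acid cycle list PDHB, a pyruvate dehydrogenase subunit, was higher by 1.37. IDH1, the cytosolic NADPH-producing isocitrate dehydrogenase, was higher by 1.28 (0.79 without control dogs 3 and 4) and MDH1, the cytosolic malate dehydrogenase, by 0.42.

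Fatty acid oxidation had 2 of 19 genes higher and 0 lower, both isomerases that move double bonds so that unsaturated fatty acids can be oxidized. ECI1 read 12.48, 8.92, 11.36, 11.14 and 11.50 in ad libitum dogs, against 9.34, 8.45, 7.74 and 8.36 in control dogs (difference 2.61, SE 0.49, 6.1-fold, adjusted p = 0.00292). ECI2 read 14.17, 12.63, 14.07, 13.85 and 14.04 in ad libitum dogs, against 12.39, 11.25, 11.94 and 11.87 in control dogs (difference 1.89, SE 0.34, adjusted p = 0.00216). Dog 5 was the low ad libitum dog for both, inside the control range for ECI1 and just above it for ECI2. The mitochondrial ribosome list had 59 of 71 positive differences and 3 called higher, MRPL41 (0.83), MRPS34 (1.59) and MRPL13 (0.48), a share of 4.23% that is near the 3.83% of all named genes. None of 23 peroxisomal genes was called, and the 2 with the smallest p, PEX7 and PEX3, differed by 0.96 and 1.37.

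The proteasome, the protease that degrades ubiquitin-tagged proteins, had 8 of 37 tested genes higher (21.6%, against 3.83% of all named genes) and 0 lower. This was the most calls of the 54 lists, with a median of 0.44 (0.34 without control dogs 3 and 4). Several shorter lists had a larger share, among them the pentose phosphate pathway (42.9%) and the desaturases and elongases (36.4%). For 14 of the 37 genes every ad libitum dog was above every control dog, against 5.76% of all named genes. PSMA4, of the alpha ring of the core particle, read 12.32, 11.46, 12.25, 11.95 and 12.27 in ad libitum dogs, against 11.14, 11.01, 11.15 and 11.20 in control dogs (difference 0.92, SE 0.18, 1.89-fold, adjusted p = 0.00332). The control dogs lay within 0.2 of each other and all ad libitum dogs above them. The other core subunits called were PSMB2 (0.73), PSMB5 (0.63), PSMB1 (0.82), PSMA1 (0.66), PSMA7 (0.49) and PSMA6 (0.47), and PSMD6 (0.54) belongs to the regulatory cap. PSMB5 is the subunit that carries the chymotrypsin-like activity.

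In cholesterol synthesis and uptake 2 of 21 genes were higher and 0 lower, with a median of 0.45, or 0.25 without control dogs 3 and 4 and 0.15 with the actin covariate. INSIG1, a sterol sensor that holds back the SREBP factors, read 13.38, 9.27, 11.11, 10.82 and 10.18 in ad libitum dogs, against 8.79, 8.53, 7.89 and 9.44 in control dogs (difference 2.29, SE 0.53, 4.88-fold, adjusted p = 0.00989). Ad libitum dog 2 was far the highest and dog 5 lay inside the control range. CYP51A1, the lanosterol demethylase, was higher by 1.45 with no overlap (adjusted p = 0.0122). Of 13 genes of cholesterol efflux and lipoproteins 2 were higher and 0 lower. APOE, the apolipoprotein made by fat cells and macrophages, was higher by 1.09 with no overlap (adjusted p = 0.00989), at 1 of 2 probe sets, and by 0.67 without control dogs 3 and 4. Its genomic neighbour APOC1, another lipoprotein component, read 8.76, 9.21, 6.74, 6.40 and 8.90 in ad libitum dogs, against 4.69, 4.50, 6.27 and 6.55 in control dogs (difference 2.50, adjusted p = 0.0183), and here dog 5 was the highest.

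Among the lower genes CDO1, which oxidizes cysteine on the way to taurine, had the largest difference. At its brightest probe set it read 10.52, 11.44, 12.81, 13.30 and 10.20 in ad libitum dogs, against 15.50, 14.30, 14.19 and 15.15 in control dogs (difference -3.13, SE 0.70, adjusted p = 0.00886). The groups did not overlap, and all 4 probe sets were called with differences of -2.86 to -3.43. The ad libitum dogs averaged 11.65 ± 1.37 at week 24 and 14.75 ± 1.15 at week 0, whereas the control dogs averaged 14.78 ± 0.64 at week 24 and 14.52 ± 0.46 at week 0. Without control dogs 3 and 4 the difference was -3.67 (adjusted p = 0.073). The rest of cysteine and taurine metabolism did not follow it: of 14 tested genes 1 was lower, CDO1, and 1 higher, SQOR (1.02), which oxidizes hydrogen sulfide in mitochondria.

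Of 20 tested prostaglandin genes 1 was higher and 2 lower, with a median of -0.59. PTGS1, the constitutive cyclooxygenase, read 5.36, 6.45, 6.12, 6.05 and 6.47 in ad libitum dogs, against 7.60, 8.46, 9.05 and 7.98 in control dogs (difference -2.18, SE 0.45, adjusted p = 0.00533). More than 1 log2 unit separated the groups, and the difference was not called without control dogs 3 and 4 (limma's adjusted p = 0.206). PTGDS, the prostaglandin D synthase, read 5.81, 7.97, 6.86, 6.28 and 6.58 in ad libitum dogs, against 7.86, 8.17, 11.16 and 8.22 in control dogs, and its difference of -2.15 was -1.38 and not called without control dog 4, and -1.34 without dogs 3 and 4. PTGR1, which inactivates prostaglandins, was higher by 0.80 (0.49 without control dogs 3 and 4).

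The growth hormone and IGF axis had 3 genes lower and 1 higher of 18. CISH and SOCS2, inhibitors that growth hormone induces through STAT5, were lower by limma's test. CISH read 3.30, 2.49, 3.69, 2.43 and 3.15 in ad libitum dogs, all at background, against 5.41, 4.68, 4.16 and 6.27 in control dogs (difference -2.12, SE 0.60, adjusted p = 0.0345). SOCS2 read 6.66, 7.45, 7.32, 7.43 and 7.40 in ad libitum dogs, against 8.46, 9.63, 7.89 and 8.73 in control dogs (difference -1.43, SE 0.38, adjusted p = 0.0239).

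Neither gene overlapped between the groups. IGF1R, the receptor of insulin-like growth factor, read 3.98, 6.66, 6.41, 5.93 and 6.02 in ad libitum dogs, against 7.21, 6.93, 7.48 and 7.36 in control dogs (difference -1.44, adjusted p = 0.0371). IGF1, its ligand and itself a target of growth hormone, was the higher gene, with 9.82, 9.98, 9.61, 10.27 and 10.41 in ad libitum dogs, against 8.45, 8.86, 8.87 and 9.00 in control dogs (difference 1.22, adjusted p = 0.0393). The receptor and its ligand thus differed in opposite directions, without overlap in either.

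Of 14 clock genes 2 were higher and 1 lower. ARNTL, the core activator also called BMAL1, read 5.52, 6.87, 7.06, 6.01 and 8.31 in ad libitum dogs, against 9.21, 9.80, 7.90 and 8.23 in control dogs (difference -2.03, SE 0.55, adjusted p = 0.027, 2 of 3 probe sets). Ad libitum dog 8 reached into the control range. Its paralogue ARNTL2 had the opposite sign, with 10.98, 9.29, 10.35, 9.76 and 9.96 in ad libitum dogs, against 6.50, 7.12, 7.34 and 8.32 in control dogs (difference 2.75, SE 0.72, 6.71-fold, adjusted p = 0.0219). No ad libitum dog overlapped the controls. NR1D2, a repressor of ARNTL, was higher by 1.11 at 1 of 2 probe sets (adjusted p = 0.0306), and PER2, of the negative limb, differed by 0.07 (adjusted p = 0.879). The hour of each biopsy is not given in the sources used here.

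**Figure D3:**
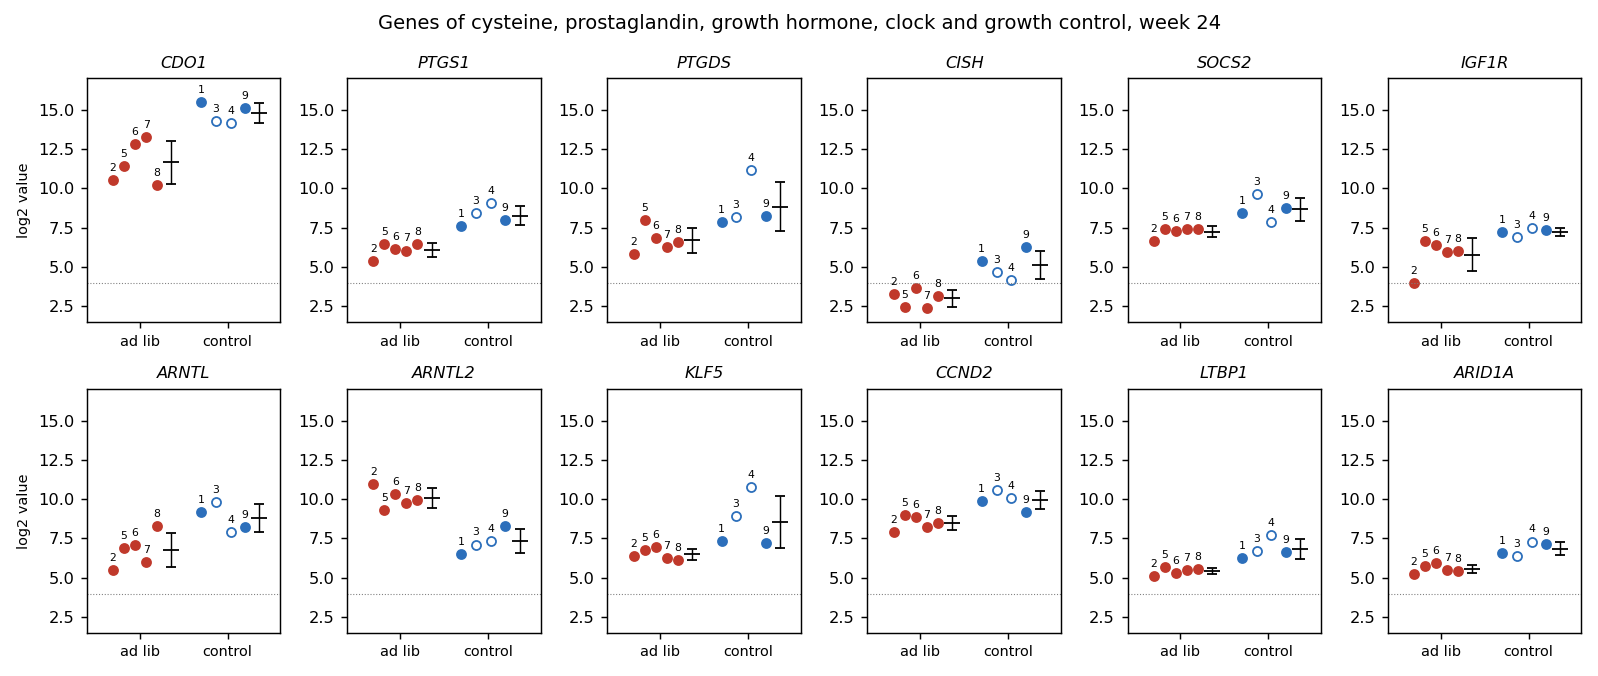
Log2 expression on the vertical axis by dog for 12 genes of metabolism, signalling, the clock and chromatin, with ad libitum dogs on the left in red and control dogs on the right in blue, open points for control dogs 3 and 4, bars for the mean ± SD (n = 5 and 4) and a dotted line at the background level of 4. CDO1, PTGS1, CISH, SOCS2 and IGF1R lie lower and ARNTL2 higher in ad libitum dogs without overlap, and ARNTL overlaps through ad libitum dog 8.

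The matrix and its growth factors gave few called genes, while most differences in these lists were negative. LOX, which cross-links collagen and elastin, read 10.83, 8.93, 10.06, 10.23 and 9.51 in ad libitum dogs, against 6.59, 7.71, 5.37 and 5.62 in control dogs (difference 3.59, SE 0.84, 12.1-fold, adjusted p = 0.0109). It was higher in every ad libitum dog than in any control dog, and the difference was 3.81 without control dogs 3 and 4 (adjusted p = 0.12). LOX was the only called gene of 18 matrix proteases, inhibitors and lysyl oxidases. Of these 18 differences 12 were negative, with a median of -0.36 (-0.34 without control dogs 3 and 4). COL15A1, a collagen of basement membranes, was the only called gene of 15 collagens (1.15, 2 of 4 probe sets). It was at 0.70 and not called without control dogs 3 and 4 (limma's adjusted p = 0.52), and the list median of -0.31 was -0.02. NID2, a linker protein of basement membranes, was the only called gene of 28 proteoglycans and glycoproteins (1.67, no overlap). Of these 28 differences 22 were negative, with a median of -0.34 (-0.27 without control dogs 3 and 4).

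BMP6, a ligand of the BMP branch, read 9.66, 8.66, 10.52, 9.24 and 9.71 in ad libitum dogs, against 7.89, 6.34, 7.84 and 7.12 in control dogs (difference 2.26, SE 0.43, 4.79-fold, adjusted p = 0.00298). The groups were apart in every dog. LTBP1, which holds latent TGF-beta in the matrix, was lower by limma's test (difference -1.40, SE 0.29, adjusted p = 0.00523, no overlap), as was ACVR1, a BMP type I receptor (-0.78, adjusted p = 0.0196, 1 of 2 probe sets). Of 24 members of the family 1 was higher (4.17%, against 3.83% of all named genes) and 2 lower (8.33%, against 1.48%). Of the 24 differences 17 were negative, and the median was -0.23 (-0.08 without control dogs 3 and 4). Among 16 Wnt modulators SFRP1, a secreted inhibitor, was higher by 1.88 (adjusted p = 0.00478, no overlap) and RSPO3, an activator, was lower by limma's test with 4 of 5 ad libitum values at background (difference -1.37, adjusted p = 0.0259, and -0.59 without control dogs 3 and 4).

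Cell cycle genes did not differ as a list, with 1 of 18 called. That gene was CCND2, a cyclin of the early cycle, which read 7.91, 8.98, 8.85, 8.23 and 8.51 in ad libitum dogs, against 9.87, 10.57, 10.05 and 9.21 in control dogs (difference -1.43, SE 0.32, adjusted p = 0.00798). In SWI/SNF and Polycomb 2 of 25 genes were lower and 0 higher, ARID1A and SMARCC2, both subunits of SWI/SNF complexes. ARID1A was lower at both probe sets, and at the dimmer one it read 5.23, 5.74, 5.91, 5.52 and 5.45 in ad libitum dogs, against 6.60, 6.39, 7.31 and 7.12 in control dogs (difference -1.28, SE 0.21, adjusted p = 7.11e-04). Its mean was 5.42 at week 0 and 5.57 at week 24 in ad libitum dogs, and 5.25 and 6.85 in control dogs. The control mean was thus higher than at week 0 and the ad libitum mean close to it. Its change from week 0 differed by -1.68 between the groups (limma's adjusted p = 0.0261). KIF5A at one of its 2 probe sets read 3.56, 4.57, 3.71, 4.01 and 4.02 in ad libitum dogs, near background, against 4.88, 5.53, 5.40 and 4.98 in control dogs (difference -1.22, SE 0.14, adjusted p = 6.37e-06), and its change differed by -1.29 (adjusted p = 0.00426). The ARID1A values lay above background in every dog, and the groups did not overlap for either gene.

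Inflammation gave few calls. Of 31 chemokines, cytokines and adhesion molecules 1 was higher and 1 lower (3.23% each, against 3.83% and 1.48% of all named genes), with a median of -0.28. CXCL14, a chemokine that adipocytes secrete, read 15.21, 13.94, 15.17, 15.48 and 15.42 in ad libitum dogs, against 12.82, 12.82, 13.42 and 14.13 in control dogs (difference 1.74, SE 0.35, adjusted p = 0.00469). NFKB1, the gene of the p50 subunit of NF-kappa-B, read 8.54, 9.77, 9.33, 9.02 and 9.05 in ad libitum dogs, against 10.07, 9.92, 9.95 and 10.29 in control dogs (difference -0.92, SE 0.23, adjusted p = 0.0165, both probe sets). CXCL14 overlapped through dog 5 and NFKB1 did not overlap. CCL2, a monocyte attractant, ran between 7.35 and 10.15 in ad libitum dogs and between 8.04 and 11.36 in control dogs, with a difference of -0.31 (adjusted p = 0.877).

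None of 20 macrophage markers was called, and CD68, a lysosomal protein of macrophages, differed by 0.33 (adjusted p = 0.815). The mean of the macrophage markers was 10.26 in ad libitum dog 5, against 8.15 to 8.94 in the other ad libitum dogs and 7.87 to 9.08 in control dogs. TREM2, a lipid receptor of macrophages, read 6.71, 9.39, 2.23, 6.01 and 7.80 in ad libitum dogs, against 2.17, 3.43, 2.12 and 2.14 in control dogs (the probe set with the largest difference, 3.96, SE 0.77, adjusted p = 0.00354). Every control dog and ad libitum dog 6 were at background, and dog 5, which had the most macrophage signal, was the highest.

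A second TREM2 probe set was called with 3.57, and 2 others were not, with 0.91 and 1.61. MS4A2, a subunit of the mast cell IgE receptor, was lower by limma's test (difference -1.08, adjusted p = 0.0427), the only call among 7 mast cell and granulocyte markers, with overlap. C8G, a complement component, was higher by 2.19 (adjusted p = 0.0102) with all control values at background. Of 18 complement genes 14 had negative differences, and the median of -0.50 was -0.66 without control dogs 3 and 4. None of 20 interferon response genes was called (OAS1 0.97 and TAP1 -0.55 had the smallest p), nor was any of 15 glucocorticoid response genes (DUSP1 0.58, SGK1 0.66), of 14 immediate early genes (KLF6 -0.90, JUN -0.93) of 9 thermogenic genes (PPARA 1.76, CIDEA 0.39) or of 4 genes listed under steroid hormones (SRD5A1 0.97, and XDH, an enzyme of purine breakdown in that list, -0.77).

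Stress lists had 1 call each. ASNS, asparagine synthetase, was the one of 23 unfolded protein response genes (higher by 1.79, SE 0.35, adjusted p = 0.00402, no overlap). HSPA4L was the one of 23 heat shock genes (difference -0.89, adjusted p = 0.0356, near background). ANKRD37, a target of the hypoxia-inducible factor, was the one of 20 hypoxia and angiogenesis genes, with 8.60, 9.98, 9.51, 8.58 and 9.30 in ad libitum dogs, against 10.20, 10.81, 10.08 and 11.31 in control dogs. Its difference of -1.41 (SE 0.27, adjusted p = 0.00298) was -1.56 and still called without control dogs 3 and 4.

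**Figure D4:**
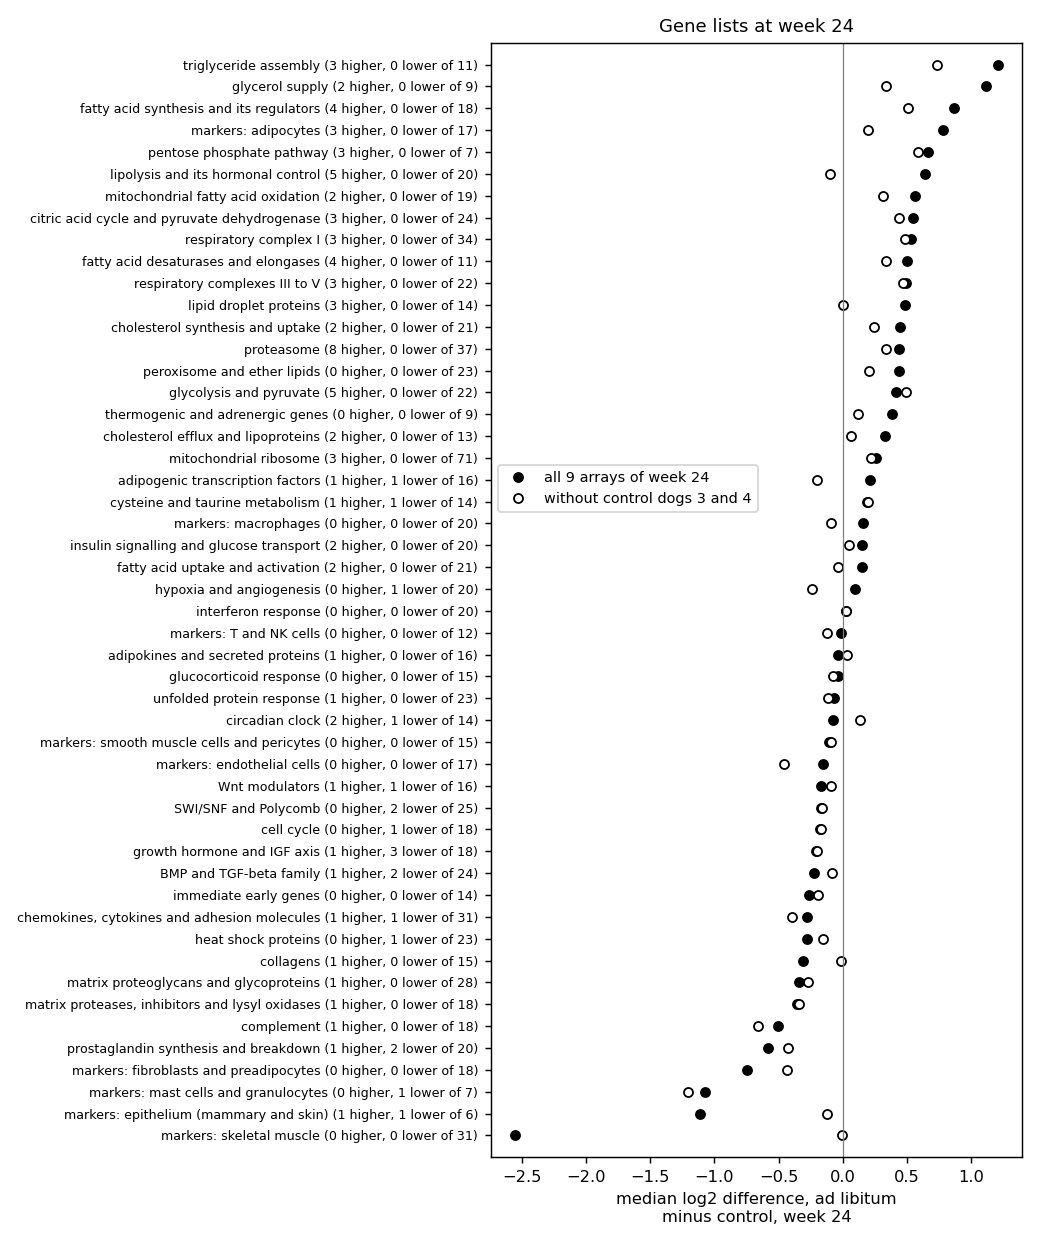
Median log2 difference (ad libitum minus control fat, week 24) of each gene list with at least 5 tested genes on the horizontal axis, with filled points for all 9 arrays and open points without control dogs 3 and 4. The lipid lists shrink toward 0 without those arrays, for lipolysis to -0.10 and for droplet proteins to -0.00, whereas the respiratory complexes stay at 0.49 and 0.47. With the actin covariate, which is not plotted, the respiratory complexes fall to 0.41 and 0.35.

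Several of the genes with the largest differences have roles outside these lists. FAM83A, a scaffold protein of growth factor signalling, had the largest positive difference of the named genes, with 9.87, 5.35, 9.05, 8.19 and 9.05 in ad libitum dogs, against 4.22, 3.20, 3.11 and 3.11 in control dogs (4.89, SE 0.93, adjusted p = 0.00298). NNAT, an imprinted endoplasmic reticulum protein, read 11.88, 7.96, 10.38, 11.17 and 11.01 in ad libitum dogs, against 6.84, 6.52, 7.11 and 7.55 in control dogs (3.47, SE 0.52, 11.1-fold, adjusted p = 2.1e-04). At this probe set NNAT had differed by 1.26 at week 0 already (limma, unadjusted p = 0.0233). Its mean there was 10.51 at week 0 and 10.48 at week 24 in ad libitum dogs, and 9.53 and 7.01 in control dogs. At its brightest probe set, not among the 124, the difference was 1.72 at week 0 (limma, unadjusted p = 6.94e-04) and 3.25 at week 24, so that the change since week 0 differed by 1.53. Neither week-0 difference passed after adjustment. ETNPPL, which breaks down phosphoethanolamine, was higher by 3.38 and ADGRG4, an adhesion receptor, by 3.44.

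RBBP4, a histone-binding protein, was higher by 3.35 at 1 of 3 probe sets, with -0.01 and 0.44 at the others, so the probe sets of this gene disagree. On the lower side LOC480601 (-2.55), FHL2 (-1.97, 1 of 2 probe sets), GDPD2 (-2.01), CCDC65 (-1.86), HDAC7 (-1.85) and ALDH1L1 (-1.82, 3 of 5 probe sets) completed the 15 largest. CDH2 and PPP2R2B were above 4 in control dogs 3 and 4 alone. CDH2 read 2.98 to 3.20 in ad libitum dogs, against 3.60, 5.63, 7.80 and 3.20 in control dogs, and PPP2R2B 2.73 to 2.93 in ad libitum dogs, against 3.08, 5.21, 8.12 and 3.22 in control dogs. Their differences of -1.91 and -2.07 were -0.25 and -0.32 without those 2 arrays. Without control dog 4 alone CDH2 was at -0.99, and PPP2R2B was no longer called (limma's adjusted p = 0.181). CCDC65 was at -1.21 and not called without control dog 4.

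Markers of other tissues were high in single dogs. All 31 skeletal muscle genes had negative differences with a median of -2.56, which was -0.01 without control dogs 3 and 4, and none was called. Of the 31, 20 averaged below 4 in ad libitum fat. The mean of 6 epithelial markers was 9.17 in control dog 4, against 6.07 to 6.82 in ad libitum dogs and 6.04 to 6.51 in the other control dogs. In that dog PERP, an epithelial adhesion protein, was highest (8.57), as were PTGDS and KLF5. AZGP1, a lipid-mobilizing glycoprotein, read 5.71 there and 2.32 to 2.47 on the other 8 arrays.

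The fibroblast and preadipocyte markers averaged 10.82 to 12.97 in ad libitum dogs and 11.96 to 12.74 in control dogs, with 15 of 18 differences negative, a median of -0.74 (-0.43 without control dogs 3 and 4) and 0 called. None of 17 endothelial, 15 smooth muscle and pericyte, 12 T and NK cell, 3 B and plasma cell or 3 red cell and platelet markers was called. Of 17 adipocyte markers 3 were higher (AQP7, LEP and LIPE) and 16 had positive differences, with a median of 0.79 that became 0.20 without control dogs 3 and 4. The adipocyte mean was 13.04, 11.15, 12.88, 12.93 and 12.70 in ad libitum dogs, against 11.92, 10.91, 11.33 and 12.08 in control dogs. It was lowest in each group in ad libitum dog 5 and in control dogs 3 and 4, the dogs with more macrophage and fibroblast or muscle signal.

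S100B and PMP22, fixed as nerve markers, differed in opposite directions (2.21 and -0.98), and S100B is also made by adipocytes. CLDN4, a tight junction protein, was higher by 2.31, opposite in sign to PERP (-2.07, or -1.32 without control dogs 3 and 4). The plot of marker means by dog shows these shifts.

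**Figure D5:**
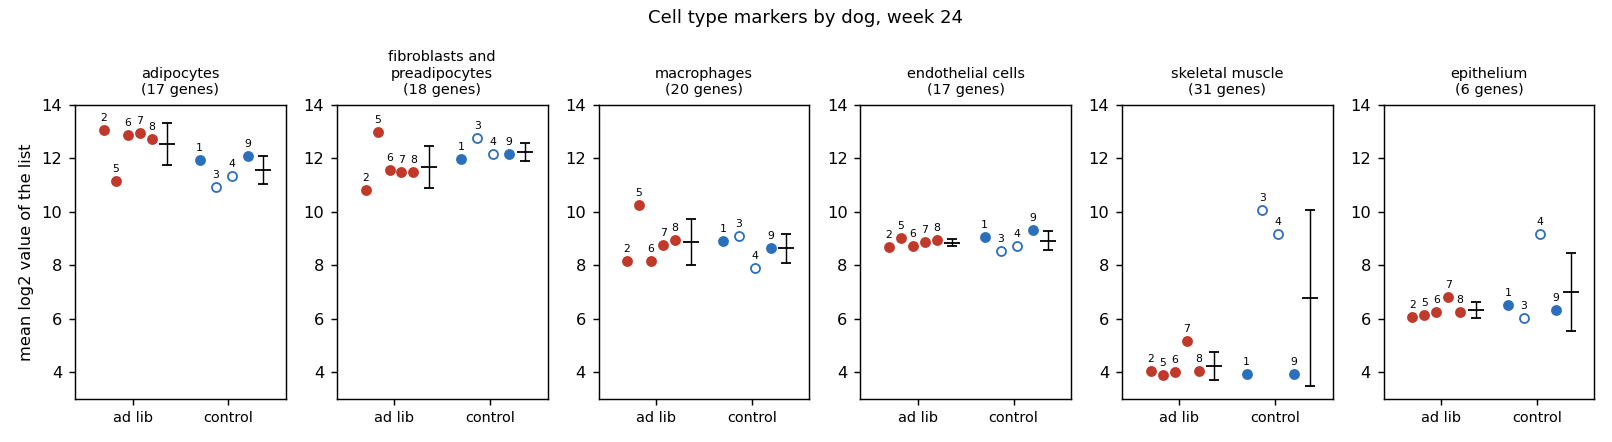
Mean log2 expression of 6 marker lists on the vertical axis by dog, ad libitum dogs on the left in red and control dogs on the right in blue, with points numbered by dog, open points for control dogs 3 and 4 and bars for the mean ± SD (n = 5 and 4). Skeletal muscle reaches 10.05 and 9.18 in control dogs 3 and 4, epithelium 9.17 in control dog 4 and macrophages 10.26 in ad libitum dog 5.

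The ad libitum dogs were not alike. Ad libitum dog 5 was the lowest of its group for 308 of the 349 higher genes (88.3%) and dog 2 the highest for 264 (75.6%), against 31.8% and 27.8% over all 9113 named genes. Among the 135 lower genes dog 2 was the lowest for 93 (68.9%) and dog 5 the highest for 81 (60.0%), against 28.7% and 33.4% over all named genes. For most of these genes dog 5 thus lay nearest to the controls and dog 2 farthest. Among control dogs, dog 3 was the lowest for 177 (50.7%) of the higher genes and dog 9 the highest for 158 (45.3%), against 30.7% each over all named genes. The body weight of single dogs is not given in the sources used here.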

How the data were processed

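The authors deposited GCRMA values of Affymetrix canine arrays, 1 per probe set. The submitters' processing notes name GCRMA but neither its version nor a log base. The deposited values run from 0.42 to 17.51 and were read as log2. Per the labels' protocols, Trizol total RNA was labelled by the 1-cycle 3' method.

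Of 43035 probe sets 111 control ones were left out. A probe set was tested when above log2 4 on at least 4 of 45 arrays (22690 of 42924, 52.9%). Gene symbols came from the platform table (16915 probe sets with 1 symbol, 271 with several, 5504 with none). Of these, 16015 were in the RefSeq gene table, where 0 symbols differed.

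limma 3.58.1 with statmod 1.5.0 in R 4.3.3 fitted all 45 arrays with 10 means (feeding group by week), a batch term over batches 1 to 5 and the dog as a block (correlation 0.00562), with 31 residual degrees of freedom left. Benjamini-Hochberg adjustment ran over all tested probe sets, with a threshold of 0.05. The dog numbers of the labels name the animals, and no dog is in both groups, so the week-24 comparison is not paired. Week-24 arrays share batch 6, so the contrast needs no batch term. Single values of the 9 arrays were compared by a two-sided exact permutation test over 126 splits (smallest possible p 0.00794). Lists are described with 1 probe set per gene, the brightest, without a test.

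Named genes are the 15 largest called differences of each sign, called members of 54 gene lists, up to 2 members of lists without a call, and 18 genes named in any case. The members and lists were chosen with earlier results of these data known. No fold is printed where a group mean is under or close to 4. Alternatives covered the model, filter, scaling, RNA integrity, muscle arrays, 2 week-8 arrays left out and each dog left out. The arrays' number limits the precision.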

Additional observations from a re-analysis of the deposited data

Results flagged for a closer look

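Among 296 groups of 4 or 5 arrays, 34 held a dog far from the others of its group by Dixon's test, and chance gives about 1 in 20. Ad libitum dog 5 accounted for 21 of the 34, and dog 2 for 5. The low values of dog 5 were PCK1 10.87, GPAM 5.14, ETNPPL 4.50, ABHD5 5.79, ACSL1 13.24, AQP7 7.75, COL15A1 10.73, CXCL14 13.94, ECI2 12.63, LDHA 14.59, MGLL 11.98, MPC2 12.88, PSMA1 9.79, PSMA6 11.66, RPE 9.55, S100B 9.80, SFRP1 10.47, ADIPOQ 14.72, PPARG 10.97 and PNPLA2 10.98. In the same dog RSPO3 was high (4.18).

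In ad libitum dog 2 ARID1A at its brighter probe set (10.19), CDH2 (2.98), IGF1R (3.98) and SOCS2 (6.66) were low and NDUFB6 (14.86) was high. In ad libitum dog 7 the skeletal muscle mean was high (5.18). In control dog 1 KIF5A was low at its other, uncalled probe set (7.61), and FAM83A (4.22) and RPE (10.05) were high. TREM2 was high in control dog 3 (3.43), PTGDS (11.16) and AZGP1 (5.71) in control dog 4 and PSMB1 in control dog 9 (11.56).

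The change from week 0 differed between the feeding groups by limma's test for ARID1A, by -1.68 (adjusted p = 0.0261), and for KIF5A, by -1.29 (adjusted p = 0.00426). For both genes the control mean rose more than the ad libitum mean.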

How the results depend on the processing

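The week-24 count of 1238 probe sets was 48 with the 9 week-24 arrays alone, 29 with actin integrity as a covariate, 64 without all arrays that carried muscle transcripts, 58 without those of week 24 and 4778 with array weights. With 2 other actin probe set pairs, chosen after seeing the data, it was 370 and 1588, and with the muscle mean as a covariate 1253. The pair that gave 1588 also follows muscle content. Leaving out each dog gave 238 to 3097. The same fit without the dog as a replicate block gave 1236. No paired analysis of the week-24 comparison was possible because no dog is in both groups. The 5 calls of the change from week 0 became 9 with no filter, 0 with a filter at log2 6, 1550 with weights, 1 with the actin covariate, 2 and 1 without the muscle arrays, 16 with a fixed dog replicate block and 0 to 28 without single dogs. The actin difference was -1.81 without control dog 3 (exact permutation p = 0.0357), and -0.92 to -1.81 over dogs. The GAPDH difference was -0.0852 to -0.0606 and the muscle difference -3.49 to -1.45.

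Signs turned only for uncalled genes. Without all, or only the week-24, muscle arrays the 4 FASN probe sets gave -0.70, -0.76, -0.64 and -0.72, or -0.70, -0.75, -0.65 and -0.73, PNPLA2 -0.16 in both, and AZGP1 0.0346 or 0.0361. LPL gave -0.0389 without the week-24 ones. Leaving out control dog 3 gave -0.0242 for 1 FASN probe set (range over dogs left out -0.0242 to 1.19), and control dog 4 gave 0.0379 for AZGP1 (-1.09 to 0.0379). CCL2 gave 0.40 without control dog 1 and 0.08 without dog 2, CD68 -0.15 without dog 5 (-0.15 to 0.72), and PER2 -0.0345, -0.0566 and -0.0113 without dogs 1, 6 and 7 (-0.0566 to 0.23). The cause was not tested. Of the 124 named called probe sets, 10 kept their call with the 9 arrays alone, 106 with the muscle covariate, 53 and 124 with the other 2 actin pairs, 84 with no filter and 37 to 124 without single dogs.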

Other observations

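Other groups of genes, chosen after their values were seen, also differed at week 24. Over all tested probe sets 3.76% were higher and 1.69% lower, and the counts of each group below stand against these shares. In amino acid and one-carbon metabolism 13 of 28 tested probe sets of 10 genes were higher and 4 lower in ad libitum fat. ASNS (1.79), the mitochondrial folate enzymes SHMT2 (1.28) and ALDH1L2 (1.69), and the tRNA synthetases CARS1 (1.13), CARS2 (1.36) and MARS1 (0.90) were higher. The cytosolic folate enzyme ALDH1L1 (-1.55 at its brightest called probe set) was lower, as was AMT (-0.77), of the glycine cleavage system, whereas its partner GCSH was higher (0.94). Of 27 probe sets of 12 redox and detoxification genes 18 were higher and 0 lower, among them TXNRD1 (1.57), thioredoxin reductase, MGST2 (1.80), NNT (1.64), the mitochondrial transhydrogenase, and BLVRB (1.62). Of 13 probe sets of 5 basement membrane genes 8 were higher and 0 lower, with COL4A1 at 0.71, COL4A2 at 0.82 and NID1 at 1.69 among those called. COL4A1 was at 0.49 (limma's adjusted p = 0.478) and COL4A2 at 0.50 (limma's adjusted p = 0.546) without control dogs 3 and 4, and neither was called.

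Chromatin regulators and splicing factors were among the lower genes. Of 23 probe sets of 9 chromatin genes 13 were lower and 0 higher, among them CHD4 (-0.76), CREBBP (-0.83) and KMT2A (-1.09). Of 30 probe sets of 10 splicing genes 11 were lower and 0 higher, with differences of -0.87 to -0.45 at the brightest called probe set of each. Since all of these genes were picked for their calls, the counts describe them and test nothing. Single genes picked the same way were WDFY4 (2.78), GADD45G (3.29), PCSK1 (1.73), a prohormone convertase, IL34 (1.09), EGFR (-0.99) and ID4 (-1.71). Of the genes named here WDFY4 and EGFR kept their call without control dogs 3 and 4.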
